A study of Mus musculus with 6 samples.

Results

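Mitochondria make a handful of respiratory chain proteins on their own ribosomes, import nearly all others from the cytosol and exchange metabolites with it through carriers. The transcripts described here come from the nuclear genes of those 3 functions in mouse skeletal muscle after electrical pacing, with sham muscle beside it. Members were the probes whose platform annotation gave exactly 1 gene symbol starting with Mrpl, Mrps, Timm, Tomm or Slc25a: 185 of the 13872 probes on the array, for 71 of the 3939 genes with such probes. They were 41 genes of the mitochondrial ribosome on 75 probes, 13 genes of protein import on 20 probes and 17 carrier genes on 90 probes. Another 5 probes carried a member symbol beside that of a second gene and were left out.

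The 6 arrays held 1 muscle RNA each, set in the other channel against the same RNA from control muscle, named Pre. They were muscle paced electrically for 3 h through an implanted pacer and taken after stimulation ended (0 h, 1 h, 3 h, 8 h or 24 h, in this order wherever 5 values are listed), and sham muscle from operated mice whose pacer stayed inactive. The sham harvest was matched in time to the 0 h one, so at later times a difference from sham mixes pacing with elapsed time. The sources used here do not give the strain, the age, the muscle or the number of mice per RNA. Each group had 1 array, so no difference below has a replicate check and no p-value was computed. Values are log2 ratios to Pre, on which 1 is 2-fold, or differences between such ratios, and they give no expression level. The dyes were not stated, so each direction assumes that ratios have the muscle on top and Pre below, which is likely but not settled. Complete values, present on every array, were available for 63 of 71 members (38 ribosome, 12 import and 13 carrier genes) and 3183 of all 3939 genes. Of the 71 members, 43 had 1 probe and 28 had several, and the probes of a gene are the only repeat measurement. Their spread, the probe SD, is between spots and not between animals.

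In the matrix, proteins of the large subunit (Mrpl genes) and the small subunit (Mrps genes) form a ribosome that translates the few messages of mitochondrial DNA, all of them for the respiratory chain or ATP synthase. Precursor proteins from the cytosol pass the outer membrane through the TOM complex (Tomm genes) and are passed on by TIM complexes (Timm genes) into or across the inner membrane. The Slc25a carriers then move single metabolites across the inner membrane, ADP and ATP among them. In muscle, endurance training is known to raise mitochondrial content over days to weeks.

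Promoters, which the symbol rule did not use, were searched for motifs of regulators known at mitochondrial genes. RefSeq promoter windows (GRCm38.p6, from 250 bases before to 50 after the gene start) were held for 62 of the 71 members. The ETS core CCGGAAG, read on both strands, was found in 23 of the 62, or 37.1%, against 9.93% of 27025 genes and 19% of the 3194 array genes with a window. It was in 14 of 37 ribosome, 4 of 11 import and 5 of 14 carrier genes. The palindrome bound by the regulator NRF-1 was in 1 member, Mrpl32 (1.61%, against 2.35% of array genes). With 1 central base left free, on both strands, a wider form that includes the palindrome was in 11 members (17.7%), against 12% of array genes and 5.19% of all genes. These are letter matches, not measured sites. Shown are the windows of Tomm20, the 1 import gene that was 2-fold from Pre, of Timm23, a channel subunit, and of Slc25a4, the member with the most probes, with matches to either motif in capitals. Timm23 was above sham at 24 h, as were 11 of 12 import genes. Each window shown holds a match. Of the import genes further above sham at 24 h than Timm23, Timm13 and Timm17a had no match, while Tomm22 had CCGGAAG. Tomm20 lies at chr8:126945872-126946171, Timm23 at chr14:32201842-32202141 and Slc25a4 at chr8:46211013-46211312, all on the minus strand and written 5′ to 3′.
Tomm20: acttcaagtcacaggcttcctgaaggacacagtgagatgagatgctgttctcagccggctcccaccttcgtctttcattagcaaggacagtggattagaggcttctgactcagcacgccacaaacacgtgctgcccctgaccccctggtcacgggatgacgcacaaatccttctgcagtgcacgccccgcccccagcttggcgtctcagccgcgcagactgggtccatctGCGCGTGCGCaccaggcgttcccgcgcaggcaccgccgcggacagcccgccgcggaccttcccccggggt
Timm23: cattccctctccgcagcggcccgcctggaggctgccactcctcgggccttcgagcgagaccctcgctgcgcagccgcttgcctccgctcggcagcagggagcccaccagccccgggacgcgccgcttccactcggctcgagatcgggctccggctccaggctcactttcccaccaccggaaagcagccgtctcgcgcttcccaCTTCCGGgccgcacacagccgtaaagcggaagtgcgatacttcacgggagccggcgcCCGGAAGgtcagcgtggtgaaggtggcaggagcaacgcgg
Slc25a4: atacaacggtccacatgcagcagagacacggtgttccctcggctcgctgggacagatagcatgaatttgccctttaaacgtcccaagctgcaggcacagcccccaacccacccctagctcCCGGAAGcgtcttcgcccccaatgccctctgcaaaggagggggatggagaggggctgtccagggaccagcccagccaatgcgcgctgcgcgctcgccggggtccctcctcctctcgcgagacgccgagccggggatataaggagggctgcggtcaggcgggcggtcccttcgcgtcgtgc
The match in Tomm20, GCGCGTGCGC, ends 11 bases before the gene start. Timm23 has CTTCCGG on one side of the start and CCGGAAG on the other, and Slc25a4 has CCGGAAG upstream of it.

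Across the whole set, most members stayed close to the control reference. On the 5 paced arrays, 50 of the 63 (79.4%) lay within 0.5 log2 units of Pre throughout, against 59.7% of all genes measured. The median range of a member over the paced arrays was 0.39, against 0.48 for all genes. At 2-fold from Pre, 4 members were called on at least 1 of the 6 arrays (6.35%), against 11% of all genes. From sham, 3 members were called on at least 1 of the 5 times (4.76%), against 11.2% of all genes. By array, the calls from Pre were 1 of 63 members in sham (3.33% of all genes), and 1, 0, 2, 0 and 1 after pacing, where 2.17%, 0.848%, 5%, 2.36% and 5.4% of all genes were called. The calls from sham were 1, 1, 0, 0 and 1 of 63, where 5.97%, 1.32%, 2.14%, 3.24% and 5.81% of all genes were called. At no time did a member pass 2-fold on the same side of sham and of Pre, as 0.817%, 0.0628%, 0.817%, 0.597% and 2.04% of all genes did. Of the 8 calls, 6 did not reach 2-fold once the arrays were scaled to 1 spread: both of Mrpl41, and those of Mrpl54 (-0.91), Mrps10 (-0.96), Tomm20 (0.91) and Timm13 (0.70). The same scaling brought Mrpl41 at 1 h past 2-fold from Pre. At 1.5-fold, 1 member stood on the same side of sham and of Pre, Mrps10 at 3 h, where 4.3% of all genes did.

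**Figure D1:**
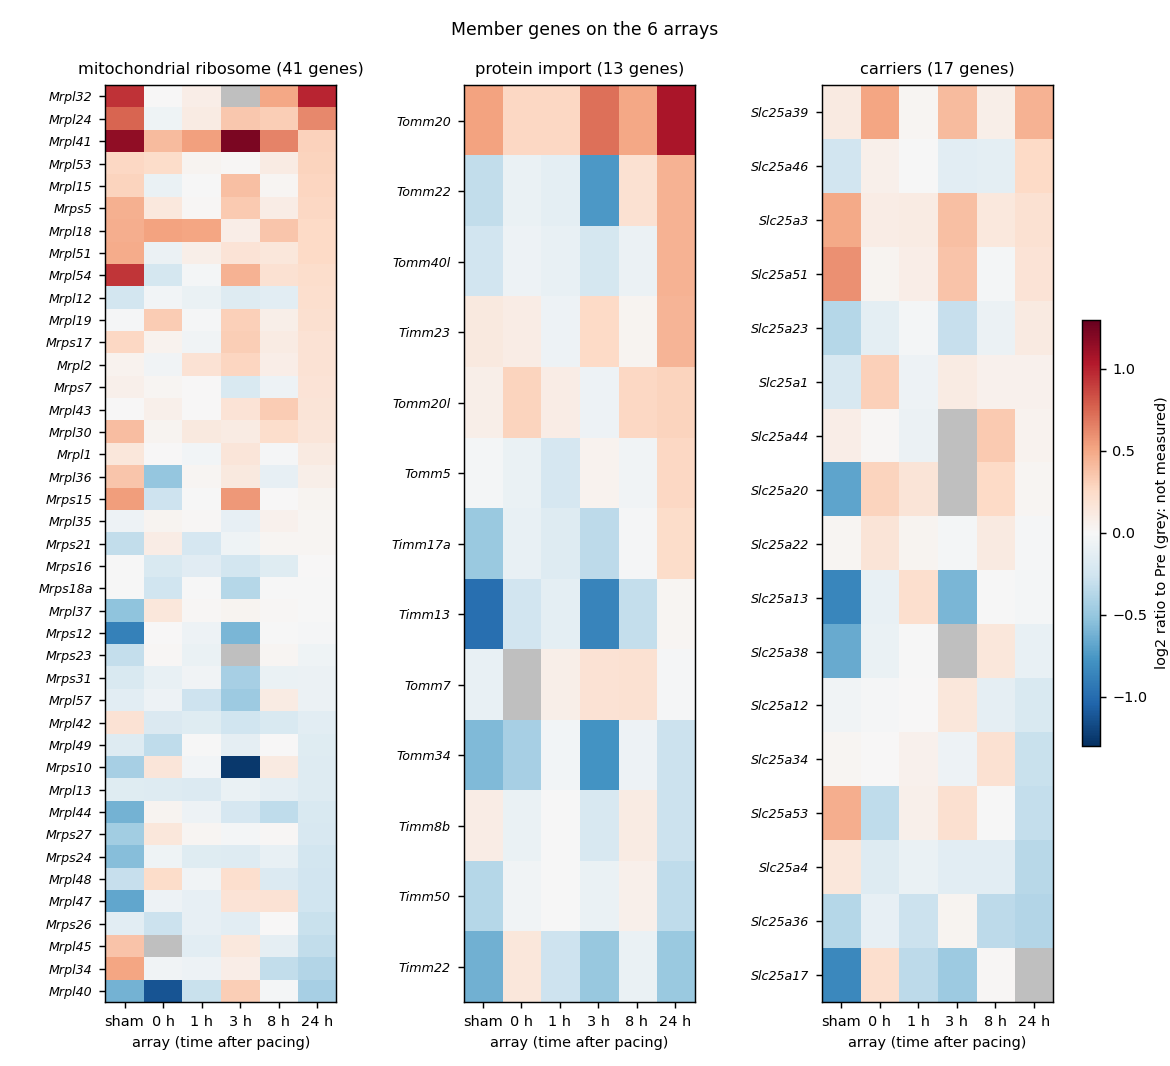
Log2 ratio to Pre of all 71 member genes (rows, by function, ordered by the 24 h value) on the sham array and at 0, 1, 3, 8 and 24 h after pacing (columns). Red is higher and blue lower than Pre, grey is not measured. Tomm20 at the top of the import panel reaches 1.06 at 24 h.

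Genes of the mitochondrial ribosome had no common shift at any time. Their median difference from sham lay between -0.06 and 0.04 at the 5 times, with 16, 19, 20, 20 and 22 of 38 genes above sham. All genes measured had medians from 0.02 to 0.08. Against Pre the ribosome median lay between -0.04 and 0.06 on the 6 arrays, and its sign at these sizes changed with the processing. Of the 2 subunits, the 25 Mrpl genes had a median of 0.12 to Pre at 24 h and the 13 Mrps genes one just below 0. The 3 h array set them furthest apart on this scale, at 0.13 for Mrpl genes, with 18 of 25 above Pre, and -0.17 for Mrps genes, with 3 of 13 above. Sham differed in the same direction, at 0.04 for Mrpl genes (14 of 25 above) and -0.13 for Mrps genes (4 of 13 above). Of all genes, 50.9% were above Pre at 3 h and 48.5% in sham. Against sham the 3 h medians were 0.05 and -0.005, with 14 of 25 and 6 of 13 above sham.

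**Figure D2:**
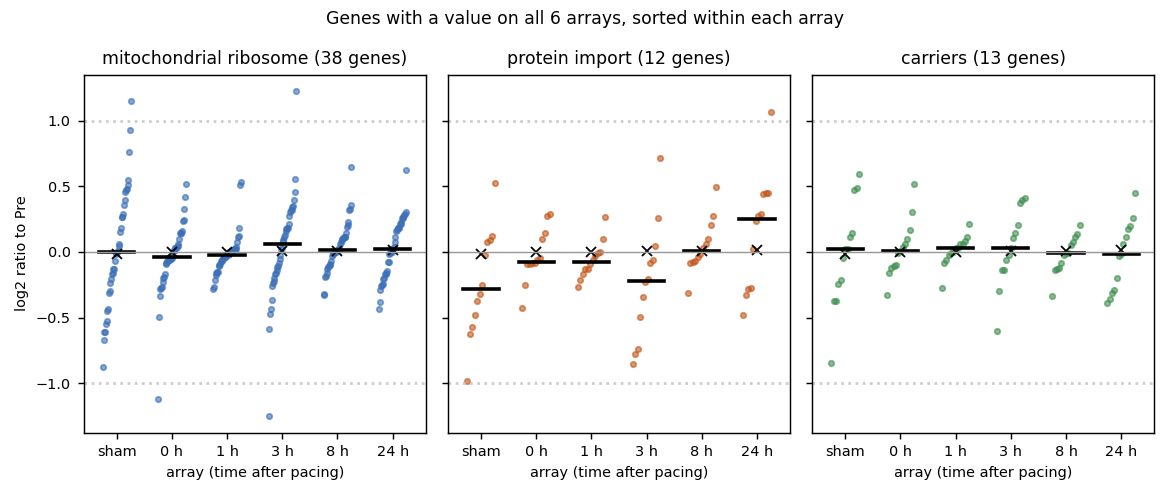
Log2 ratio to Pre (vertical axis) of each gene with a value on all 6 arrays, as points sorted within each array, for ribosome, import and carrier genes. Black bars are class medians, crosses the median of all 3183 genes and dotted lines 2-fold. The import median stands at 0.25 at 24 h and -0.28 in sham, while ribosome and carrier medians stay within 0.06 of Pre.

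Of the 38 ribosome genes, 3 were 2-fold from Pre on at least 1 array (7.89%), against 11% of all genes. From sham 1 was called (2.63%), against 11.2% of all genes. Mrpl41, Mrpl54, Mrpl40 and Mrps12, described next, had 1 probe each. Mrpl41, a large subunit protein, had log2 ratios to Pre of 0.42, 0.53, 1.23, 0.65 and 0.30 at the 5 times, against 1.15 in sham, so it was above Pre on every array. The 3 h and sham values were past 2-fold, where 2.86% and 1.82% of all genes were 2-fold higher, but with arrays scaled to 1 spread they were 0.94 and 0.80. Mrpl54, also of the large subunit, was at -0.23, -0.02, 0.46, 0.20 and 0.23 at the 5 times, against 0.93 in sham. Its difference from sham at 0 h, -1.16, was the 1 ribosome call against sham (2.86% of all genes were 2-fold lower there). Most of that size came from the high sham value, as the 0 h value was near Pre.

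Mrpl40 had -1.12 to Pre at 0 h, with -0.29, 0.32, -0.03 and -0.43 at the later times and -0.61 in sham. It was lowest right after pacing and above sham by 0.94 at 3 h. Mrps10, of the small subunit, had 0.16, -0.03, -1.25, 0.11 and -0.17 at the 5 times, and -0.43 in sham. The 3 h array alone was past 2-fold, and that value rests on 1 probe, because its second probe was not measured on any array. With exact zeros kept as values, the 3 h ratio was -0.63, past 2-fold no longer. At 0 h, 0.723% of all genes were 2-fold below Pre, and at 3 h 2.14%. Mrps12, whose bacterial counterpart sits at the decoding site, stood at 0.01, -0.07, -0.59, -0.01 and -0.02 at the 5 times, against -0.88 in sham. Its differences from sham, up to 0.89 at 0 h, were the highest of the class at every time but 3 h (0.29), while its other 4 paced values lay close to Pre.

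None of the ribosome genes with 3 or more probes was 2-fold from Pre or sham. Mrpl42, with 8 probes, had gene means of -0.19, -0.15, -0.26, -0.19 and -0.14 at the 5 times, against 0.18 in sham. Of its probes shared with the sham array, 5 of 7, 7 of 7, 4 of 6, 8 of 8 and 7 of 7 were below sham, and the mean difference at 24 h was -0.38 (probe SD 0.21). Mrpl36 had 3 probes, all below sham at 0 h by 0.86 on average (probe SD 0.32), and stood at -0.50 to Pre there and at 0.36 in sham. Its later differences from sham ran from -0.47 at 8 h to -0.23 at 3 h. Mrpl51, with 3 probes, differed by -0.55 at 0 h (probe SD 0.66) and -0.23 at 24 h (probe SD 0.50), less than the spread of its probes.

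In most other genes with 3 or more probes, the probes disagreed more than the gene differed from sham. Mrps26 (4 probes) had differences between -0.16 and 0.13 with probe SDs from 0.52 to 0.87. Mrps17 (3 probes) had -0.22 at 0 h with a probe SD of 0.87, and Mrpl18 (3 probes) had 0.04 with a probe SD of 0.57. Mrpl15 (3 probes) lay at -0.37 at 0 h (probe SD 0.42) and at -0.01 at 24 h (probe SD 0.12). Mrpl13 (4 probes) differed from sham by 0.09 at 24 h (probe SD 0.56), but by 0.47 at 0 h on 2 shared probes (probe SD 0.10). Mrps7 (3 probes, 2 of them shared with sham) had -0.19 at 0 h (probe SD 0.64) and -0.04 at 8 h (probe SD 0.30), and 0.29 at 24 h (probe SD 0.15). Mrpl44 (3 probes), a large subunit protein with a fold of the RNase III family, had 0.41 at 24 h on each of 2 shared probes, with -0.20 to Pre against -0.61 in sham.

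At 24 h the highest ribosome genes against sham were Mrps12 at 0.86 and Mrpl37 at 0.52, and the lowest Mrpl34 at -0.89 and Mrpl41 at -0.85. Mrpl37 lay between 0.52 and 0.67 above sham at all 5 times, yet between -0.01 and 0.14 to Pre, with sham at -0.53. Mrpl34 had -0.38 to Pre at 24 h and 0.51 in sham. Mrpl47 was highest at 8 h, 0.87 above sham, and 0.86 above it at 3 h, with 0.19 and 0.18 to Pre. Mrps15, the lowest small subunit gene at 0 h, was 0.82 below sham there and level with it at 3 h. Mrpl12, the stalk protein that also binds mitochondrial RNA polymerase, stood at 0.22 to Pre at 24 h and -0.24 in sham. Mrpl24 was the second lowest gene at 1 h, 0.65 below sham, but its 2 probes stood at -0.21 and 1.73 in sham.

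Import genes were the one class whose median left 0 by more than 0.1 on several arrays. Their median difference from sham was 0.20, 0.17, 0.10, 0.32 and 0.30 at the 5 times, against 0.08 or less for all genes. The number above sham was 8 of 12 at 0 h, 1 h and 3 h, 9 at 8 h and 11 at 24 h (91.7%), where 57.5% of all genes were above sham. On the same scale Timm genes had a median of 0.23 and Tomm genes of 0.42 at 24 h, with 5 of 6 and 6 of 6 above sham. Against Pre the class median was -0.07, -0.08, -0.22, 0.01 and 0.25 at the 5 times, and -0.28 in sham. From 0 h to 8 h the class median was thus below Pre or level with it, and the positive differences came with the low sham values. At 24 h the low sham median was part of the difference, and 8 of 12 genes were above Pre. To Pre at 24 h, the Tomm median was 0.37, with 5 of 6 genes above, and the Timm median -0.13, with 3 of 6 above. Scaling the arrays to one spread gave a 1 h difference from sham of 0.00, and on probes measured on all 6 arrays the 3 h difference was -0.01. The 8 h and 24 h medians were 0.21 or more under every alternative but 1: without Tomm34 the 8 h median was 0.19.

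**Figure D3:**
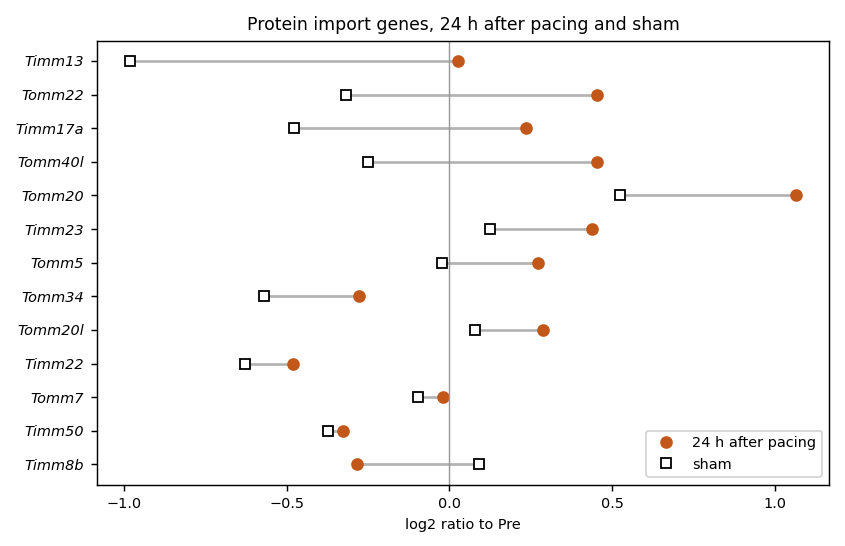
Log2 ratio to Pre (horizontal axis) of the 13 import genes at 24 h after pacing (filled circles) and in sham (open squares), ordered by the difference. The circle lies right of the square for 12 genes and left of it for Timm8b.

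Tomm20, the outer membrane receptor that recognises presequences, was the highest import gene to Pre on every array but that of 0 h, where Tomm20l was higher. Its log2 ratios to Pre were 0.27, 0.27, 0.72, 0.50 and 1.06 at the 5 times, against 0.52 in sham. At 24 h it was 2-fold above Pre, as were 3.9% of all genes, and its 2 probes read 1.13 and 1.00. Against sham the 24 h difference was 0.54, nearly equal on both probes (probe SD 0.01), and at 0 h and 1 h the gene stood 0.25 and 0.26 below sham.

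Tomm22, the central receptor of the TOM complex, had ratios of -0.08, -0.13, -0.74, 0.20 and 0.45 at the 5 times, against -0.32 in sham. The 24 h difference from sham was 0.77 on 2 probes (probe SD 0.24). Tomm40l, a relative of the channel protein Tomm40, was 0.70 above sham as a gene mean at 24 h, but 0.14 on the 1 probe measured on both arrays. Tomm5, a small TOM subunit, likewise stood 0.29 above sham as a mean of its probes, but 0.04 on 2 shared probes (probe SD 0.29). With shared probes used for every gene, the class median against sham was 0.20, 0.08, -0.04, 0.32 and 0.25 at the 5 times, with 8, 7, 6, 9 and 11 of 12 genes above sham.

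Tomm34, largely a cytosolic co-chaperone despite its symbol, was below Pre on all 6 arrays, from -0.78 at 3 h to -0.03 at 1 h, and 0.29 above sham at 24 h. Tomm20l, a relative of Tomm20, had 0.29 to Pre at 24 h and 0.08 in sham. Tomm7, another small TOM subunit, lacked a 0 h value and had 0.08, 0.19, 0.20 and -0.02 at the later times, against -0.10 in sham.

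Among inner membrane and intermembrane space genes, Timm13, a small chaperone for hydrophobic precursors, was the 1 import gene 2-fold from sham. It had -0.25, -0.13, -0.85, -0.31 and 0.03 at the 5 times, against -0.98 in sham. The 24 h difference was 1.01, where 3.02% of all genes were 2-fold higher, and the 24 h value itself was level with Pre. Timm13 has 1 probe, so no second probe checks it. Timm17a, a part of the presequence translocase, stood 0.71 above sham at 24 h as a gene mean and 0.67 on its 1 shared probe, with 0.23 to Pre. Timm23, the channel of that translocase, had 0.10, -0.06, 0.26, 0.03 and 0.44 at the 5 times, against 0.12 in sham.

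Other subunits did not follow the same course. Timm22, the core of the carrier translocase, had 0.15 to Pre at 0 h and -0.48 at 24 h, with -0.63 in sham. Its largest difference from sham was 0.77, at 0 h. Timm50, a receptor of the presequence translocase, had 2 probes that disagreed at 24 h, -0.69 and 0.03 to Pre, with -0.84 and 0.09 in sham. Timm8b, a small chaperone of the intermembrane space, was the 1 import gene below sham at 24 h, by -0.38 on the log2 scale. Of the 12 import genes, 7 had their highest paced value at 24 h and 7 their lowest at 3 h. The share over all genes was not counted. Of the 38 ribosome genes, 7 were highest at 24 h and 12 lowest at 3 h, and of the 13 carriers 2 and 4. Over all probes these were the paced arrays with the widest spread of ratios (robust SD 0.399 at 24 h and 0.445 at 3 h). The part of that spread in these counts was not tested.

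Partners of the import machinery, from a list outside the symbol rule, had 8 of 23 genes with values on all arrays. Their median difference from sham was -0.20 at 0 h and 0.35 at 24 h, with 3 and 7 of 8 above sham. None of the 8 was 2-fold from both sham and Pre, as at most 2.04% of all genes were at any of the times. Chchd4, which oxidises precursors in the intermembrane space, was 1.58 above sham at 24 h, with 0.53 to Pre and -1.05 in sham. It had 1 probe, and 3.02% of all genes were 2-fold higher than sham at 24 h. Hspa9, the motor of matrix import, had 0.82 to Pre at 24 h and 0.48 in sham (5 probes). Dnajc19, a co-chaperone of that motor, was the lowest of the list at 24 h, 0.19 below sham.

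Carrier genes as a class had medians near both references. The difference from sham was 0.15, 0.03, 0.08, 0.04 and -0.04 at the 5 times, with 8, 8, 7, 7 and 5 of 13 genes above sham. Against Pre the median lay between -0.02 and 0.03 on the 6 arrays, and alternatives changed its sign on 5 of them. None of the 13 was 2-fold from Pre on any array, where the share over all genes was 11%. The carriers above sham at all 5 times were 4 of 13, or 30.8% (Slc25a1, Slc25a13, Slc25a23 and Slc25a46), and those below it at all 5 were also 4 (Slc25a3, Slc25a4, Slc25a51 and Slc25a53). These shares lie near those over all genes, 29.6% above and 22.5% below, and the 5 differences share the sham array.

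Slc25a4, the ADP/ATP carrier of heart and muscle, was measured by 63 probes, far more than any other member. The median probe had a log2 ratio to Pre of -0.20, -0.10, -0.15, -0.17 and -0.40 at the 5 times, against 0.20 in sham. Probes ran from -1.41 to 0.73 at 24 h and from -1.19 to 0.79 in sham, so single probes overlapped, while the upper quartile at 24 h was -0.23 and the lower quartile in sham 0.03. At 24 h 9 of 60 measured probes were above Pre, against 46 of 59 in sham.

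Compared probe by probe, Slc25a4 was lower than in sham on 50 of 57, 50 of 57, 50 of 55, 55 of 59 and 52 of 58 probes at the 5 times. The mean differences were -0.32, -0.23, -0.28, -0.28 and -0.51, with probe SDs of 0.44, 0.32, 0.32, 0.34 and 0.47. None of these reached 2-fold, and the 24 h gene mean was 0.706 times that of sham. The 24 h array was also lower than the 8 h array on 51 of 60 probes (mean -0.23, probe SD 0.29) and lower than the 0 h array on 46 of 58 (mean -0.18, probe SD 0.31). At 3 h and 8 h the probes were level, with 28 higher and 29 lower at 8 h.

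The probes share their RNA and array, so their agreement speaks to spot error alone. One probe stood apart on every array, from 0.73 at 24 h to 1.55 at 8 h, and without it the 24 h mean was -0.38 to Pre and -0.51 against sham. Its letters are not given in the files used here, and cross-hybridisation with close relatives such as Slc25a5 was not tested. Among the 7 genes with 20 or more probes, Slc25a4 was the third lowest to Pre at 24 h, after Tpm1 (-0.58, 90 probes) and Myh6 (-0.39, 20 probes).

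**Figure D4:**
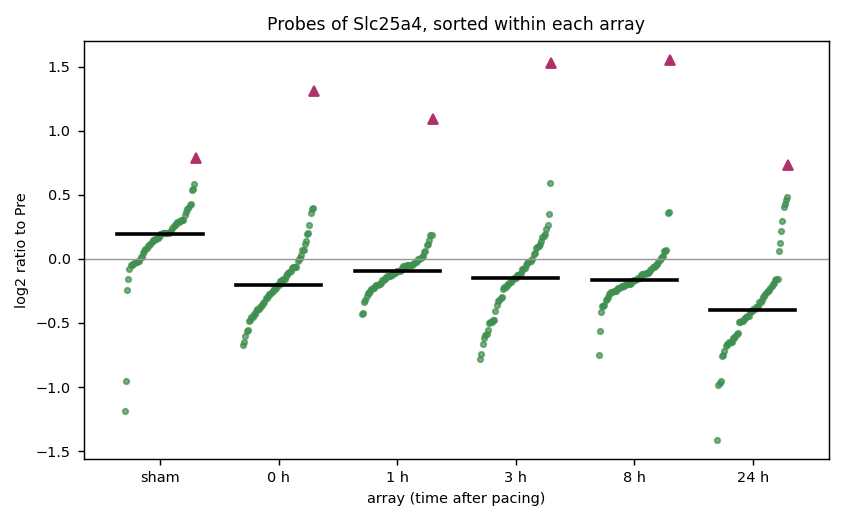
Log2 ratio to Pre (vertical axis) of each measured probe of Slc25a4 on the 6 arrays, sorted within each array, with the median as a black bar. The median is 0.20 in sham, between -0.20 and -0.10 from 0 h to 8 h, and -0.40 at 24 h; the triangle marks the probe that is highest on every array.

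Slc25a3, which carries the phosphate used for ATP synthesis, had 8 probes and the same side of sham. The gene means at the 5 times were 0.10, 0.11, 0.40, 0.14 and 0.20, against 0.49 in sham, where all 8 probes were above Pre. Below sham lay 7 of 8, 7 of 7, 5 of 7, 8 of 8 and 8 of 8 probes. The mean difference was -0.39 at 0 h (probe SD 0.27) and -0.29 at 24 h (probe SD 0.23). Unlike Slc25a4, it stayed above Pre on every array. Slc25a51, a carrier of NAD, had 0.04, 0.09, 0.37, -0.02 and 0.17 at the 5 times, against 0.59 in sham. Its 3 probes were all below sham at 0 h, 1 h, 3 h and 8 h, and 2 of 3 at 24 h. Slc25a53, with 1 probe, was 0.80 below sham at 0 h and 0.78 at 24 h.

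The carriers above sham at all 5 times, Slc25a1, Slc25a13, Slc25a23 and Slc25a46, had sham values below Pre. Slc25a13, an aspartate/glutamate carrier of the malate-aspartate shuttle, had -0.10, 0.21, -0.60, -0.01 and -0.03 at the 5 times, against -0.85 in sham. It was the 1 carrier called, 1.06 above sham at 1 h, where 0.785% of all genes were 2-fold higher, on 1 probe. Slc25a12, the other carrier of that shuttle and the one typical of muscle, differed from sham by -0.16 at 24 h to 0.19 at 3 h, or by 0.48 at 3 h on its 1 shared probe. Slc25a1, the citrate carrier, was 0.52 above sham at 0 h and from 0.15 to 0.32 above it later, with 0.31 to Pre at 0 h. Slc25a23, an ATP-Mg/phosphate carrier, and Slc25a46, an outer membrane protein of the family, were 0.49 and 0.51 above sham at 24 h.

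Slc25a39, needed for glutathione entry, had the highest carrier ratio to Pre at 0 h (0.52), 3 h (0.41) and 24 h (0.45), with 0.03 at 1 h, 0.07 at 8 h and 0.11 in sham. Its 2 probes disagreed at 0 h, at 1.04 and -0.01. Slc25a36, a carrier of pyrimidine nucleotides, was the lowest carrier at 24 h to Pre, at -0.39, but had -0.37 in sham. Slc25a22, a glutamate carrier, stayed between -0.03 and 0.17 on the 6 arrays. Slc25a34 stood at 0.20 at 8 h and -0.29 at 24 h, with 0.03 in sham.

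The remaining 4 carriers and 4 other members lacked a value on some array. Slc25a20, which exchanges carnitine for acylcarnitines, lacked the 3 h value and had 0.29, 0.16, 0.26 and 0.03 on the other paced arrays, against -0.69 in sham. Slc25a38, a glycine carrier needed for heme synthesis, lay from -0.10 to 0.15 on the 4 paced arrays that measured it, against -0.66 in sham. Slc25a17, which is peroxisomal, was 1.06 above sham at 0 h, with 0.22 to Pre. Slc25a44, which carries branched-chain amino acids, lay between -0.08 and 0.34 on 5 arrays. Mrpl32 had 0.99 to Pre at 24 h and 0.94 in sham, and Mrpl45 had -0.32 at 24 h and 0.37 in sham. For Mrps23 the 2 probes disagreed, with a probe SD of 1.45 for the 24 h difference from sham. Each of these genes was outside the counts above.

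Mitochondrial transport genes outside Slc25a, with 10 of 20 listed genes measured throughout, had a median difference from sham of -0.25 at 0 h and 24 h, with 4 of 10 above sham at each. Their median to Pre was -0.01 at both times and 0.23 in sham, so the difference came with the high sham values. Cpt1b, the muscle enzyme that commits fatty acids to the mitochondrion, was the lowest at 24 h, -1.03 against sham and -0.60 to Pre. It had 1 probe, and 2.8% of all genes were 2-fold lower than sham at 24 h. Abcb10, an inner membrane transporter of the heme pathway, was the highest against sham, at 0.60, but level with Pre, with -0.60 in sham. The voltage-dependent channel genes stood at -0.20 (Vdac1), 0.18 (Vdac2) and -0.52 (Vdac3) against sham at 24 h. To Pre they stood at -0.07, -0.001 and -0.03 there, with 0.13, -0.18 and 0.49 in sham. Of 34 listed mitochondrial translation factors and synthetases, 3 had values throughout. Lrpprc, which stabilises mitochondrial messages, was 2-fold below both sham (-1.83) and Pre (-1.25) at 0 h, on 1 probe. At 0 h, 0.817% of all genes were 2-fold from sham and Pre in 1 direction. At 24 h Ptcd3, a ribosome-bound RNA-binding protein, was the highest of these 3 listed genes (0.38 against sham) and Lrpprc the lowest (-0.85). Of 16 regulators of mitochondrial gene expression 3 had values throughout: Ppargc1b, a coactivator of mitochondrial genes, Tfb2m, a mitochondrial transcription factor, and Twnk, the replicative helicase, at -0.16, -0.83 and -1.02 against sham at 24 h. Each of these regulators had 1 probe, and the 2.8% share applies to Twnk as well.

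The 3 classes were also set beside 2 related groups. The 56 cytosolic ribosomal protein genes had a median of 0.49 to Pre at 24 h, with 49 above it, and the 38 mitochondrial ribosome genes one of 0.02, with 21 above. In sham these medians were 0.33 for the cytosolic genes and just below 0 for the mitochondrial ones. Against sham, the 24 h median was -0.28 for the 72 respiratory chain and ATP synthase genes (15 above sham). Relative to Pre these genes were level at 24 h (median 0.01, 38 of 72 above), while their sham median was 0.27. Their difference thus came with the high sham values. On the sham scale import genes stood at 0.30, cytosolic ribosomal protein genes at 0.19 (41 of 56 above) and carriers at -0.04. Slc25a4 and Slc25a3, at -0.50 and -0.29 against sham, were among the 8 of 13 carriers below sham, the side of the respiratory chain genes. With 1 array per group these differences between groups of genes were not tested.

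**Figure D5:**
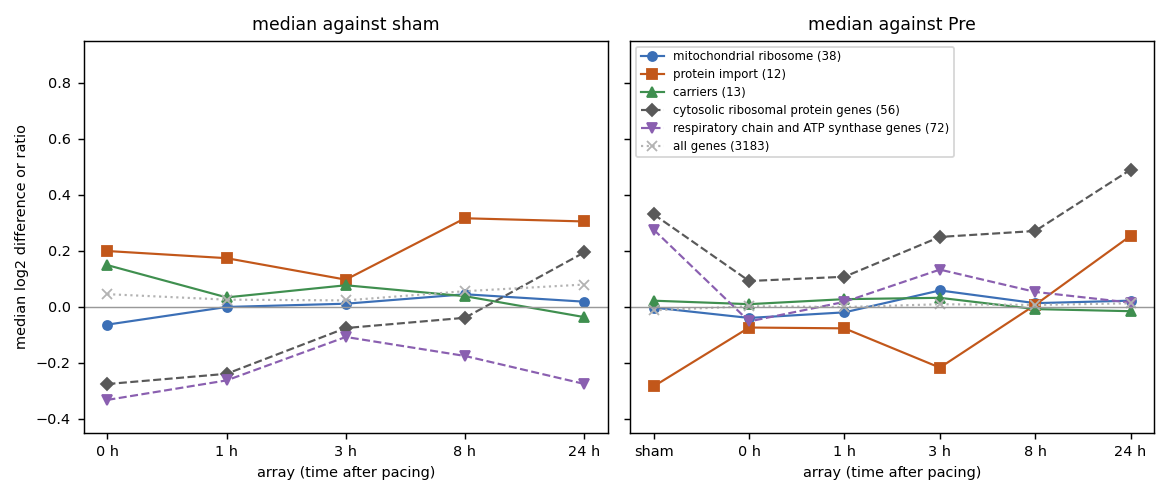
Median log2 difference from sham (left) and median log2 ratio to Pre (right) of the 3 classes, 2 related groups of genes and all genes, by array (gene numbers in the legend). The import median is highest of the 6 groups against sham at each time, and the cytosolic ribosomal protein genes are highest to Pre.

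The sham array bears on each of these differences. Over all probes the robust SD of the ratios was 0.292, 0.176, 0.445, 0.242 and 0.399 at the 5 times, and widest in sham, at 0.495. In sham, 10 of the 63 members were at -0.5 or less and 7 at 0.5 or more. The SD over genes of the sham ratios was 0.45 for the members and 0.47 for all genes, so this spread was not particular to members. The correlation of the sham and 3 h arrays over the 63 members was r = 0.71, and that of sham and 0 h r = 0.21; all arrays share the Pre RNA, and genes are not replicates. Over all genes the 15 pairs of arrays had r from 0.22 to 0.75. Of the 185 member probes, 94.6%, 94.1%, 87%, 98.4% and 93.5% were measured at the 5 times and 95.7% in sham. Of all probes, 87.3%, 90.9%, 87.9%, 95.2% and 87.8% were measured at those times and 93.9% in sham, so members were measured more often on every array but that of 3 h.

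Ratios give no level, so the muscle label could not be checked against how strongly its markers were expressed. The 9 of 11 fibre markers measured throughout had a median of -0.06 against sham at 24 h (summed log2 difference -0.67), with 4 of 9 above. The 4 of 6 fibroblast markers measured had a median of -0.67 against sham at 24 h, where their sum was -2.24, while the sum was -0.28 at 0 h. Endothelial markers (3 of 6 measured) had a median of 0.11 against sham at 24 h. Of smooth muscle markers 3 of 5 were measured throughout, and their summed ratio to Pre was -2.06, -0.33, -0.90, -0.68 and -0.99 at the 5 times, against 2.46 in sham. That sham sum came with Actg2 at 2.52, while Acta2 stood at 0.54 and Cnn1 at -0.59, on 1 probe each. The part of these markers in the differences of the mitochondrial genes was not tested, and in bulk muscle fewer cells of a type and less RNA per cell cannot be told apart.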

How the data were processed

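Deposited log10 ratios cover 13872 probes on 6 arrays, 1 value each, except that 485 sham cells were empty and so not measured. Muscle RNA was in channel 1 and the Pre reference in channel 2, per the labels. The log base was read from rounding residues (cells of 9.64e-17 in place of 0). Image analysis, background correction, centring and dyes are not given in the sources used here. Exact zeros (665 to 1762 per paced array, 201 in sham) and 154 sham values shared within runs of 289 probes were treated as not measured. The remaining deposited log10 ratios were converted to log2 and centred on each array's median. Probes were named by the platform annotation when it gave 1 symbol (6609 probes; 6599 matched to GRCm38.p6 by Entrez ID, for names). A gene's value is the mean of its measured probes. A call is an absolute log2 value of 1 or more; no test was possible with 1 array per group. Named are all called members, the 2 highest and 2 lowest of each class per comparison, genes with 3 or more probes and listed subunits; others were chosen for their role after their values were seen. Members, lists, comparison groups and the handling of zeros were chosen with earlier results of these data known. Promoter windows came from RefSeq. Python 3.11.15 and pandas 2.3.3 were used. Alternatives changed zeros, centring, scaling, probe averaging, the probes used, completeness, the fold threshold and names.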

Additional observations from a re-analysis of the deposited data

Results flagged for a closer look

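Among called members and class medians, 2 genes lay on opposite sides of sham at different times by more than the median probe SD of the comparison; the difference between the times was not tested. Mrpl40 had a difference from sham of -0.51 at 0 h and was higher by 0.94 at 3 h and by 0.58 at 8 h. Mrps10 was higher than sham by 0.59 at 0 h, by 0.40 at 1 h and by 0.55 at 8 h, and its difference was -0.82 at 3 h. Each gene rests on 1 measured probe.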

How the results depend on the processing

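Each alternative was compared with the reported value, with the median probe SD of the comparison as the limit, which is wide against a median over genes. All 242 alternative values of the 33 class medians moved by less than that limit, and 17 of them changed sign or stood at 0, each among medians within 0.1 of 0. All 66 alternative values of Slc25a4 kept their sign; its 24 h difference from sham ran from -0.60 to -0.41. Of the 40 alternative values of the 8 calls, 38 moved by less than the limit and none changed sign. Mrps10 at 3 h stood at -0.63 to Pre with zeros kept, and Mrpl40 at 0 h at -1.31 with arrays scaled. With arrays scaled to a common spread, calls from Pre over the 6 arrays numbered 2 in place of 5, with Mrpl41 at 1 h newly among them. Calls from sham numbered 1 in place of 3. A 1.5-fold threshold gave 23 calls from Pre, 41 from sham and 1 from both in 1 direction, in place of 0. At that threshold 6.08% of member values and 12.1% of all gene values were called from Pre, and 13% of member values and 17% of all gene values from sham. Leaving out Tomm34 or the highest Slc25a4 probe was chosen after seeing the data, as was the wider promoter motif. No paired analysis was possible because each group had 1 array. With 1 array a group the precision of every difference is unknown, and the ratios carry no signal over background.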
